A study of Mus musculus with 10 samples.

Results

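A set of 49 protein-coding ATP-binding cassette (ABC) genes of the mouse was followed in testis at postnatal day 10, in mice lacking the farnesoid X receptor FXR and in wild-type mice. Members were genes in the count table annotated as protein-coding whose symbol gives a subfamily letter from A to G and a number. They made up 49 of 30719 genes in the table, of which 19552 were protein-coding. Subfamily A held 16 members, B 10, C 9, D 4, E 1, F 3 and G 6. Of the 49 members, 45 had enough counts to be tested, and Abca14, Abca15, Abcb11 and Abcg8 did not.

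ABC proteins bind and split ATP, and most of them use it to move lipids, bile salts, conjugates, peptides, metals or drugs across a membrane. FXR, encoded by Nr1h4, is the nuclear receptor that senses bile acids, and in liver it drives the bile salt export pump Abcb11. Its relatives, the liver X receptors LXR, respond to oxysterols and drive the sterol exporters Abca1, Abcg1, Abcg5 and Abcg8 in many tissues. In testis, ABC proteins are known from Sertoli cells, which clear lipid from dying germ cells, from the blood-testis barrier, and from developing germ cells.

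RNA was sequenced from 5 FXR-/- and 5 WT mice of a mixed 129sv and C57Bl background at postnatal day 10, with 1 library per mouse and 1 flowcell for all. Whole testes were frozen and extracted with Trizol, and libraries were made with an Illumina TruSeq kit. Which exons of Nr1h4 the null allele lacks is not stated in the labels, and the number that follows C57Bl in them runs on from library to library and was not used. The FXR-/- libraries bear the numbers 8 to 12 and the WT libraries the numbers 3, 4, 5, 6 and 9, and values per library are given in that order. Levels are CPM, that is counts scaled to library size, adjusted by edgeR's TMM factors. Depth was 33037427 to 39655170 counts in FXR-/- libraries and 32330029 to 35006180 in WT libraries. Nr1h4 itself had 8, 9, 11, 11 and 13 counts in FXR-/- libraries, against 15, 15, 13, 14 and 26 counts in WT libraries. The target was therefore scarce in both genotypes. Raw counts met at 13, but values scaled to library size did not overlap. They were 0.236 to 0.334 CPM in FXR-/- libraries and 0.407 to 0.783 CPM in WT libraries (log2 fold change -0.84, edgeR adjusted p = 0.0347). The call of Nr1h4 was lost without any 1 of 7 libraries, FXR-/- 8 to 12 or WT 4 or 9 (edgeR adjusted p up to 0.117).

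Markers of the cells that a day 10 testis holds were present in every library, and several lists of markers differed between the genotypes. Sertoli cell markers summed to 2245 to 3441 CPM in FXR-/- libraries, against 3688 to 4557 CPM in WT libraries, and 6 of 9 were lower. Adipocyte markers summed to 70.3 to 918 CPM in FXR-/- libraries, against 21.4 to 126 CPM in WT libraries, and 7 of 8 were higher, with libraries 9 and 10 at the top (918 and 522 CPM). Duct epithelium markers summed to 49.3 to 81.1 CPM in FXR-/- libraries, against 25.2 to 36.6 CPM in WT libraries, and 6 of 7 were higher. Of the spermatogonial markers 2 of 10 were higher and 1 lower, of the Leydig cell markers 1 of 6 was lower, and of 6 tested pachytene and spermatid markers 1 was higher. None of 9 meiotic prophase, 5 macrophage, 6 endothelial and 5 smooth muscle and peritubular markers passed the test. Of all tested genes 13.9% passed, 6.17% higher and 7.71% lower. In RNA from whole tissue, fewer cells of a type and less RNA per cell cannot be told apart.

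Of the 45 tested ABC genes, 7 passed the test at an edgeR adjusted p under 0.05 over all 18559 tested genes. Abca17, Abcb5, Abca12, Abcb10 and Abcd3 were lower in FXR-/- testes, and Abca16 and Abcb6 were higher. This share, 15.6%, lay near the 13.9% of all tested genes that passed. By direction, 2 of 45 members were higher, beside 6.17% of all tested genes, and 5 of 45 were lower, beside 7.71%. The FXR-/- and WT values did not overlap for 5 of the 45 members, beside 11.6% of all tested genes. The median log2 fold change was 0.06 over the members and 0.01 over all tested genes, and 55.6% of members and 53.3% of all tested genes had a positive one. Summed over the 49 members, the level was 2371 ± 80.3 CPM in FXR-/- testes and 2430.2 ± 56.3 CPM in WT testes (SD, n = 5 each). The members that passed belonged to subfamilies A, B and D.

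**Figure D1:**
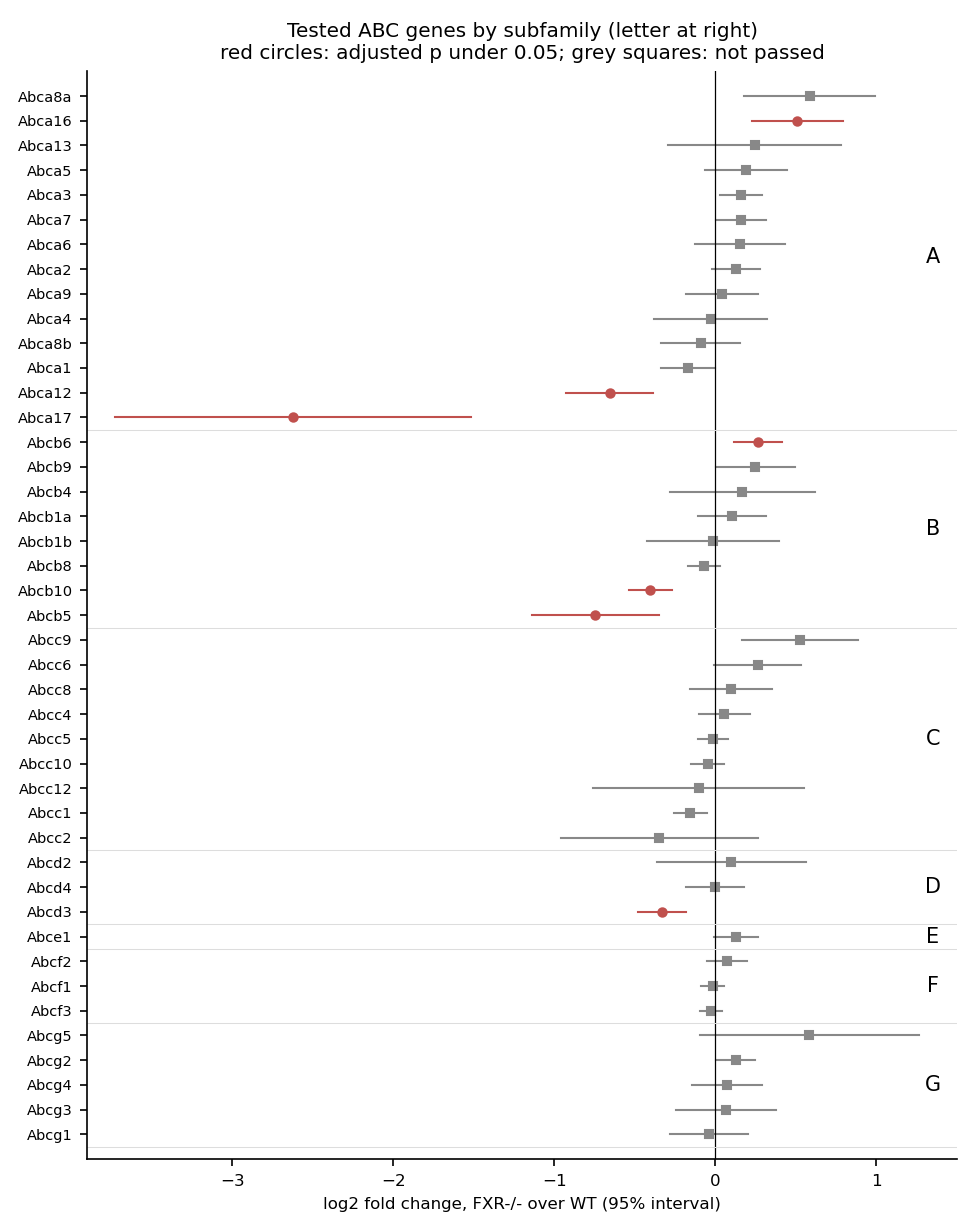
Log2 fold change, FXR-/- over WT, of 43 of the 45 tested ABC genes with its 95% interval, grouped by subfamily A to G. The 7 members past the test are red circles and the 36 others grey squares. Abca17 lies farthest from 0, at -2.62, and most intervals include 0. The intervals rest on a normal approximation, and some leave out 0 for members that did not pass.

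By subfamily, 3 of 14 tested A genes passed, of which 1 was higher and 2 lower, and their median log2 fold change was 0.14. In subfamily B, 3 of 9 tested genes passed, 1 higher and 2 lower, with a median of 0.10. In subfamily D, 1 of 4 passed, lower, with a median of -0.08. None of the 9 tested C genes, the 1 E gene, the 3 F genes or the 5 tested G genes passed, with medians between -0.02 and 0.13. Beside these counts, and those of the role groups below, stand the 13.9% of all tested genes that passed, 6.17% higher and 7.71% lower. A difference between the subfamilies, or between any of them and all genes, was not tested.

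**Figure D2:**
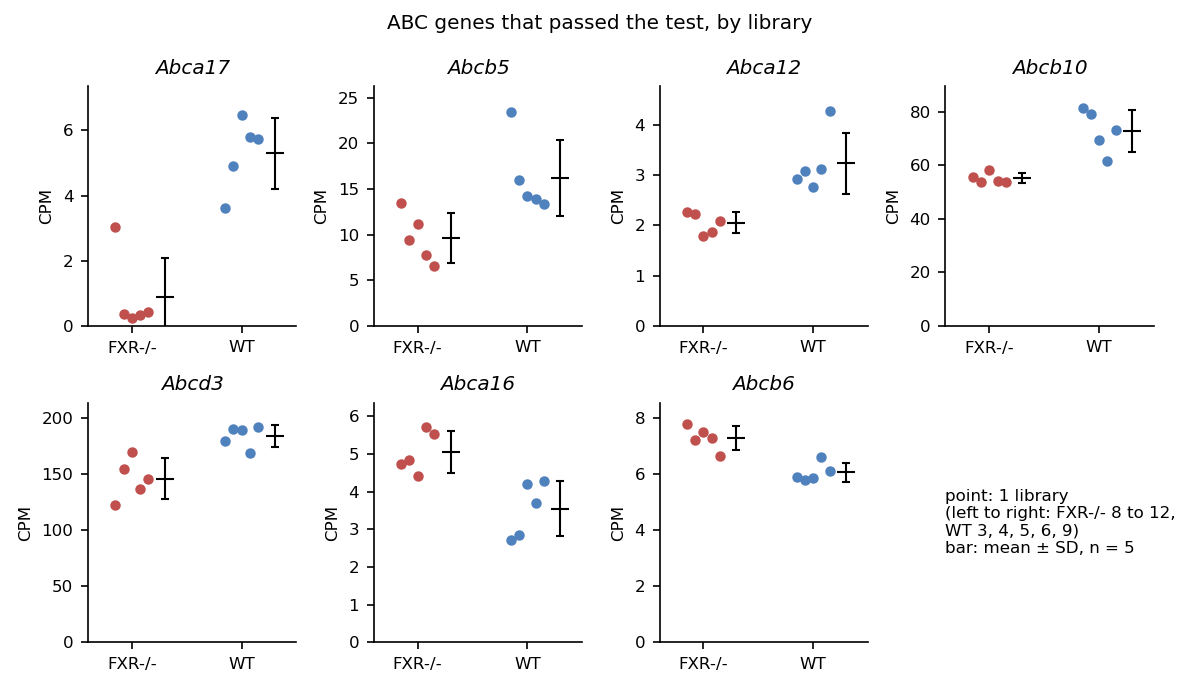
CPM in each library of the 7 ABC genes that passed the test, FXR-/- left of WT, with mean and SD (n = 5; the SD bar of Abca17 is drawn down to 0). The values of the genotypes do not overlap for Abca17, Abca12, Abcb10, Abca16 and Abcb6, and meet at the edges for Abcb5 and Abcd3.

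Levels differed far more between members than between genotypes. Per kilobase of exon, Abcf2 was the most abundant member, with 68.0 ± 2.41 CPM per kilobase in FXR-/- testes and 64.6 ± 6.40 in WT testes (SD, n = 5 each). Abcf1 followed with 38.3 ± 0.679 CPM per kilobase in FXR-/- testes and 38.8 ± 1.65 in WT testes. Abca1 had 31.9 ± 4.43 CPM per kilobase in FXR-/- testes and 35.9 ± 1.76 in WT testes, and Abce1 36.0 ± 2.06 and 33.0 ± 3.46. Abce1 stood before Abca1 in FXR-/- testes and after it in WT testes, and the ranges of mean ± SD of these 2 genes overlapped in both genotypes. The range of Abcf1 lay above that of Abca1 in FXR-/- testes and met that of Abce1 there, and it met that of Abca1 in WT testes. Abcd3, Abcf3, Abca2, Abcc5, Abcb10 and Abcc1 completed the top 10 in both genotypes. At the other end, 9 members had a mean under 1 CPM over all libraries, 12 had 1 to 10 CPM, 20 had 10 to 100 CPM and 8 had at least 100 CPM. Abca17 stood at rank 39 of 49 in FXR-/- testes and at rank 33 in WT testes.

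Abca17 is one of 4 subfamily A genes, with Abca14, Abca15 and Abca16, that are known mainly from rodent testis, and its protein has been described as a lipid transporter of germ cells. It lies on the minus strand of chromosome 17 (24264259 to 24351068, GRCm38). Its start is 882 bases from that of Abca3 (24351950 to 24410201, plus strand), a gene for a transporter that loads surfactant phospholipid into lamellar bodies in lung. The 2 genes thus run away from each other. The windows of 300 bases around both starts, from RefSeq on GRCm38.p6, are shown because the head-to-head pair differed in what its members did. The Abca17 window is chr17:24351010-24351309 on the minus strand and the Abca3 window is chr17:24351773-24352072 on the plus strand. Neither holds AGGTCA, the core word that nuclear receptors such as FXR bind, on either strand, so that no letter is in capitals.
Abca17: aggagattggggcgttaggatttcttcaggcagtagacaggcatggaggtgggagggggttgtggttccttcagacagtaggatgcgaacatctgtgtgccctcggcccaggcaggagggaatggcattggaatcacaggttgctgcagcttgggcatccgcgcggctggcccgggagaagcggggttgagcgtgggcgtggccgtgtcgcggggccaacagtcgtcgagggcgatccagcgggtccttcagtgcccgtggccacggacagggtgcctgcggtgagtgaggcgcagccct
Abca3: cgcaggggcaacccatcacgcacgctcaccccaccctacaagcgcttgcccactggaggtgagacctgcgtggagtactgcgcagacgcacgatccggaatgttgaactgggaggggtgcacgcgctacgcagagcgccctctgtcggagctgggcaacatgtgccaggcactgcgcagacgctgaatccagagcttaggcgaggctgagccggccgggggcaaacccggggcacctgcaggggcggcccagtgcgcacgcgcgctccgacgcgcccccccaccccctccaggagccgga
The Abca17 window held 21 CG dinucleotides at 64.7% G and C, and the Abca3 window 29 at 69.7%.

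Abca17 was the member that differed most. It had 3.04, 0.381, 0.228, 0.338 and 0.437 CPM in FXR-/- libraries 8 to 12, against 3.61, 4.92, 6.46, 5.80 and 5.72 CPM in WT libraries 3, 4, 5, 6 and 9. Library 8 held 103 counts and the other 4 FXR-/- libraries 9 to 17, where the WT libraries held 120 to 206. The groups did not overlap, but library 8 lay nearer to the lowest WT library than to the other FXR-/- libraries. The mean was 0.884 ± 1.21 CPM in FXR-/- testes and 5.30 ± 1.09 CPM in WT testes (SD, n = 5 each). Abca17 was 6.15-fold lower in FXR-/- testes, and its log2 fold change was -2.62 (SE 0.563, edgeR adjusted p = 0.0111). Without library 8 the log2 fold change was -3.93 (edgeR adjusted p = 1.67e-06), and it stayed past the threshold without any 1 of the other 9 libraries, at -2.73 to -2.37. An exact two-sided permutation test over the 10 libraries gave p = 0.00794, the smallest that 252 assignments can give.

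Abca3 did not follow its neighbour. Its level was 54.8, 59.0, 59.7, 67.5 and 63.7 CPM in FXR-/- libraries, against 49.6, 51.2, 57.8, 60.2 and 54.0 CPM in WT libraries, and the groups overlapped. Abca3 did not pass the test, and its log2 fold change was 0.16 (SE 0.0672, edgeR adjusted p = 0.135). Within 100 kb of Abca17, the antisense transcript D330041H03Rik, whose exons overlap the end of Abca3 on the other strand, had 14.3, 14.7, 13.9, 14.9 and 14.9 CPM in FXR-/- libraries, against 10.3, 9.38, 11.5, 8.56 and 8.95 CPM in WT libraries. It was higher in every FXR-/- library (log2 fold change 0.58, edgeR adjusted p = 0.00119). Whether strand was used in counting is not given in the sources used here, so that reads of Abca3 and of this transcript cannot be told apart where they overlap. Rnps1, a splicing factor gene on the far side of Abca3, had 73.0, 50.8, 50.1, 51.8 and 53.0 CPM in FXR-/- libraries, against 71.4, 73.5, 80.4, 80.1 and 80.3 CPM in WT libraries. It fell (log2 fold change -0.47, edgeR adjusted p = 0.00866), and library 8 again lay among the WT libraries while the other 4 FXR-/- libraries lay below all of them. In a mixed 129sv and C57Bl background, the labels do not give the parental strain that each mouse carried at this stretch of chromosome 17. The null allele and strain origin here therefore cannot be told apart for Abca17, Rnps1 and D330041H03Rik. Ccnf on the other side of Abca17 did not pass (edgeR adjusted p = 0.939). Library 8, at 92.3 CPM of Ccnf, stood above all others. The other FXR-/- libraries had 61.6 to 70.9 CPM of Ccnf and the WT libraries 64.7 to 77.4 CPM. Eci1 beyond Rnps1 did not pass either (log2 fold change -0.15, edgeR adjusted p = 0.0606), but its values did not overlap. They were 30.9 to 33.2 CPM in FXR-/- libraries and 34.2 to 39.1 CPM in WT libraries. Library 8, at 33.2 CPM of Eci1, lay below every WT library.

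**Figure D3:**
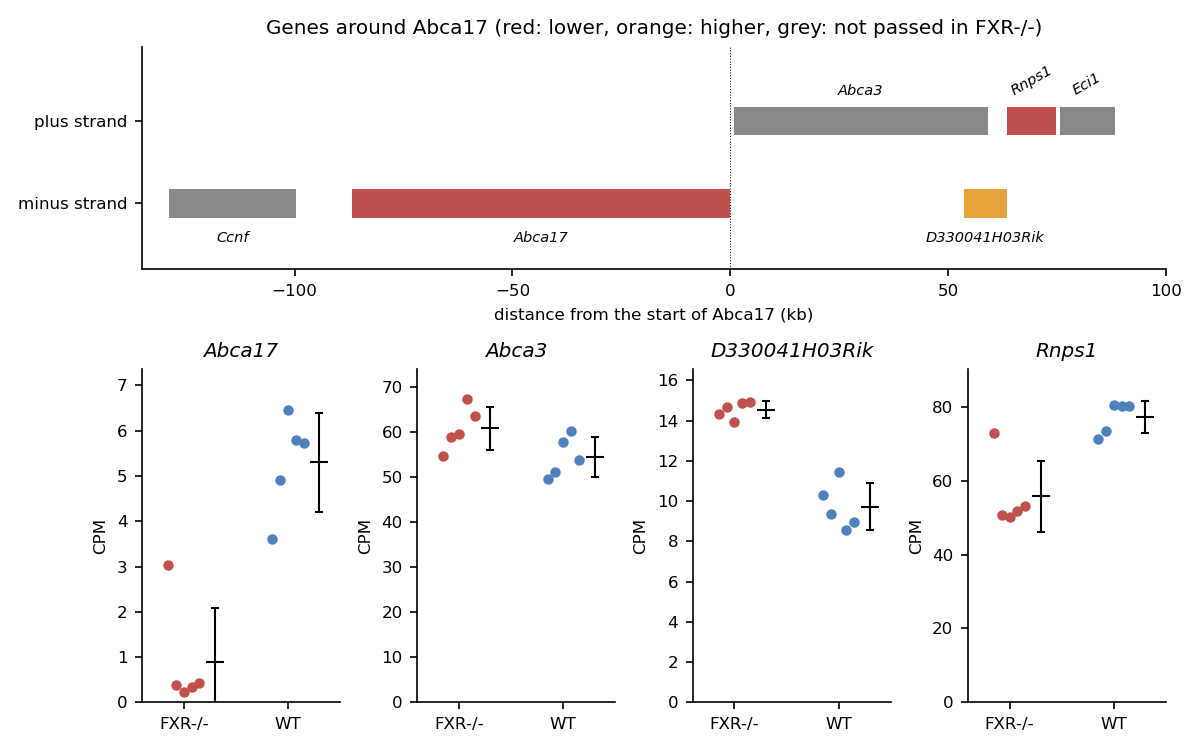
Top, genes around Abca17 by distance from its start in kilobases, with genes on the plus strand above those on the minus strand (red: lower in FXR-/-; orange: higher; grey: not past the test). Bottom, CPM in each library of Abca17, Abca3, D330041H03Rik and Rnps1, FXR-/- left of WT, with mean and SD (n = 5; the SD bar of Abca17 is drawn down to 0); 1 FXR-/- library, number 8, stands near the WT libraries in Abca17 and Rnps1.

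Abca16 moved the other way from Abca17. It had 4.74, 4.84, 4.40, 5.73 and 5.52 CPM in FXR-/- libraries, against 2.71, 2.85, 4.20, 3.71 and 4.28 CPM in WT libraries. The lowest FXR-/- library, number 10, stood just above the highest WT library, number 9, and WT libraries 3 and 4 were the lowest of all. Abca16 was 1.42-fold higher in FXR-/- testes, and its log2 fold change was 0.51 (SE 0.145, edgeR adjusted p = 0.0373). The call was lost without any 1 of 6 libraries, FXR-/- 9, 11 or 12 or WT 3, 4 or 6 (edgeR adjusted p up to 0.0908). WT libraries 3 and 4 also had the lowest sums of meiotic prophase markers, 508 and 731 CPM, beside 789.6 to 1345 CPM in FXR-/- libraries and up to 1229 CPM in WT libraries. The part of meiotic cells in the Abca16 result was not tested. Its 2 neighbours on chromosome 7 were scarce: Abca14 had 0 to 6 counts per FXR-/- library and 0 to 2 per WT library, and Abca15 had 4 to 10 counts per FXR-/- library and 0 to 8 per WT library.

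The sterol and phospholipid exporters were the largest role group, with 11 members, of which 10 were tested. Of these, 1 was lower, Abca12, none was higher, and the group's median log2 fold change was 0.14. Their summed level was 715 ± 56.1 CPM in FXR-/- testes and 725 ± 30.7 CPM in WT testes (SD, n = 5 each). Abca12 loads lipid into the lamellar granules of keratinocytes. It had 2.27, 2.23, 1.80, 1.87 and 2.08 CPM in FXR-/- libraries, against 2.92, 3.08, 2.76, 3.11 and 4.28 CPM in WT libraries, or 71 to 82 counts per FXR-/- library and 88 to 142 counts per WT library. Every FXR-/- value lay below every WT value, and WT library 9 stood above the other WT libraries. Abca12 was 1.58-fold lower in FXR-/- testes, and its log2 fold change was -0.66 (SE 0.138, edgeR adjusted p = 0.00996). Without that library the log2 fold change was -0.54 (edgeR adjusted p = 0.0179).

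Abca1, which hands cholesterol and phospholipid to apolipoprotein A-I, was the most abundant exporter. It had 256, 318, 353, 367 and 361 CPM in FXR-/- libraries, against 370.0, 376, 354, 360.2 and 401 CPM in WT libraries. FXR-/- libraries 8, 9 and 10 lay below every WT library, with library 8 the lowest, and libraries 11 and 12 lay among the WT libraries. Abca1 did not pass the test, and its log2 fold change was -0.17 (SE 0.0856, edgeR adjusted p = 0.208). Library 8 also had the lowest sums of Sertoli cell (2245 CPM), Leydig cell (214 CPM) and macrophage (70.2 CPM) markers of all libraries. Without library 8 the log2 fold change of Abca1 was -0.09. The part of these cells in the Abca1 values was not tested. Abca2, an endosomal and lysosomal transporter abundant in myelin-forming cells, had 224, 204, 201, 224 and 223 CPM in FXR-/- libraries, against 164, 179.5, 215, 216 and 211 CPM in WT libraries. The FXR-/- libraries lay within a narrow band above WT libraries 3 and 4 and overlapped the others. Abca2 did not pass the test, and its log2 fold change was 0.13 (SE 0.0772, edgeR adjusted p = 0.295).

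The other tested exporters of sterols and phospholipids gave no call either. Abcg1, which passes cholesterol on to high-density lipoprotein, averaged 26.4 ± 2.39 CPM in FXR-/- testes and 27.2 ± 5.75 CPM in WT testes (SD, n = 5 each; log2 fold change -0.04, 95% interval -0.28 to 0.20). Abcg4, its relative known from brain, averaged 7.55 ± 1.06 CPM in FXR-/- testes and 7.18 ± 0.699 CPM in WT testes (log2 fold change 0.07, 95% interval -0.15 to 0.29). Abcg5 and Abcg8, which together form the sterol pump of bile canaliculus and gut, stayed under 1 CPM in every library. Abcg8 was not tested, and Abcg5 did not pass (log2 fold change 0.58, 95% interval -0.09 to 1.26, edgeR adjusted p = 0.283). Abca5 (log2 fold change 0.19), Abca7 (0.16) and Abcb4 (0.17), the phosphatidylcholine translocator of bile in the liver, did not pass. The intervals of Abcg1 and Abcb4 reach -0.28 to 0.20 and -0.28 to 0.62 on the log2 scale, so that differences within these ranges are not excluded.

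Abcb11, the bile salt export pump, is the classic FXR-driven ABC gene of liver. It had 4, 0, 0, 1 and 5 counts in FXR-/- libraries, against 0, 3, 1, 2 and 2 counts in WT libraries. Most libraries of both genotypes were thus at or under 3 counts, the limit that a count of 0 allows, and no fold change can be given. Its RefSeq window, chr2:69342567-69342866 on the minus strand of GRCm38.p6, is shown beside that of Abcb6, the only member past the test whose window holds the word AGGTCA. The Abcb6 window is chr1:75180343-75180642 on the minus strand, and capitals mark AGGTCA, or TGACCT where it lies on the other strand.
Abcb11: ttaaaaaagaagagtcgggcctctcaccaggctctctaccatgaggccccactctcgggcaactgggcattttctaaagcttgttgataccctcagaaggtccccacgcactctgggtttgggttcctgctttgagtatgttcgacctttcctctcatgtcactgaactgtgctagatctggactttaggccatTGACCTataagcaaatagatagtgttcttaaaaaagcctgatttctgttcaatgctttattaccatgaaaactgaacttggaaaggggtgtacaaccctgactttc
Abcb6: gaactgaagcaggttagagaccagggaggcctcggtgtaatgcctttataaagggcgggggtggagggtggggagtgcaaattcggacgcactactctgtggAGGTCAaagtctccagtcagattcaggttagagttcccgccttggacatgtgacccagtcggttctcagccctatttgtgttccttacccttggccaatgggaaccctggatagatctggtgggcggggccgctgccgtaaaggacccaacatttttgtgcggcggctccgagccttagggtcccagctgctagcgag
Both windows hold the word once. It was searched on both strands and occurred in 16.2% of all 32544 RefSeq windows of this length and in the windows of 5 of the 38 members that had one, Abcb6, Abcb11, Abcc2, Abcc10 and Abcg2. The FXR-type inverted repeat AGGTCANTGACCT occurred in 0.00922% of all windows and the LXR-type direct repeat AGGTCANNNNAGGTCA in 0.0154%. Only exact words were searched, and neither exact repeat occurred in a member's window. In the Abcb11 window the letters aggccat stand directly before TGACCT, where the inverted repeat has AGGTCAN. Such near matches were not searched for or counted. The words overlap by construction, and a match or its lack describes only these letters.

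Abcc2, the exporter of conjugated anions into bile, was the other member of the role group of bile salt and conjugate exporters. It had 0.236, 1.06, 0.911, 0.521 and 0.719 CPM in FXR-/- libraries, against 0.632, 0.777, 0.972, 0.868 and 1.17 CPM in WT libraries. The values overlapped, with FXR-/- library 8 the lowest. Abcc2 did not pass the test, and its log2 fold change was -0.35 (SE 0.313, edgeR adjusted p = 0.494).

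None of the 8 drug and anion efflux pumps passed, and their median log2 fold change was 0.02. Abcc1, the glutathione conjugate pump MRP1, had 200.3, 244, 225, 215 and 224 CPM in FXR-/- libraries, against 242, 239, 248, 244 and 261 CPM in WT libraries. FXR-/- library 9 lay among the WT libraries and the other 4 FXR-/- libraries below all of them. Abcc1 did not pass the test, and its log2 fold change was -0.16 (SE 0.0511, edgeR adjusted p = 0.0639). DESeq2 gave an adjusted p of 0.0242 for the same gene. Abcc5, the MRP5 pump of cyclic nucleotides, had 210.4, 232, 218, 213 and 217 CPM in FXR-/- libraries, against 240.1, 214, 229, 215 and 205 CPM in WT libraries, and the groups overlapped throughout. Abcc5 did not pass the test, and its log2 fold change was -0.02 (SE 0.0479, edgeR adjusted p = 0.857). The blood-testis barrier pumps Abcb1a and Abcb1b (P-glycoprotein) and Abcg2 had log2 fold changes of 0.10, -0.02 and 0.13, and Abcc4, Abcc10 and Abcg3 lay between -0.05 and 0.06. Abcb1a and Abcb1b share 22.5% and 12.8% of their 50-base words with other genes, chiefly with each other, and their separate counts are uncertain.

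The sulphonylurea receptors Abcc8 and Abcc9 are regulatory subunits of potassium channels and not pumps. Abcc9, the subunit of vascular and muscle channels, had 31.6, 40.0, 25.2, 20.3 and 19.4 CPM in FXR-/- libraries, against 22.1, 20.4, 18.9, 18.5 and 15.1 CPM in WT libraries. FXR-/- libraries 8, 9 and 10 stood above every WT library and libraries 11 and 12 among them. Abcc9 did not pass the test, and its log2 fold change was 0.52 (SE 0.185, edgeR adjusted p = 0.0792). DESeq2 gave an adjusted p of 0.0347. Library 9, the highest, was also the highest in adipocyte markers, but library 8, the next, was the lowest FXR-/- library in them. Endothelial markers summed to 197, 218, 203, 157 and 149.9 CPM in FXR-/- libraries, against 199, 205, 181, 179.8 and 172 CPM in WT libraries. In each genotype the same 3 libraries were highest in Abcc9 and in endothelial markers, FXR-/- 8, 9 and 10 and WT 3, 4 and 5, and the same library was lowest in both, FXR-/- 12 and WT 9. Smooth muscle and peritubular markers summed to 1208, 907, 1011, 1033 and 995 CPM in FXR-/- libraries. In WT libraries these sums were 1056, 1065, 983, 1094 and 919 CPM. FXR-/- library 9, the highest in Abcc9, was thus the lowest of all libraries in these markers. Among WT libraries, number 6 was the highest in them and number 9 the lowest. None of the 6 endothelial and 5 smooth muscle markers passed or was at 0, and their part in the Abcc9 values was not tested. Abcc8, the subunit of the pancreatic beta cell channel, had 23.4, 21.6, 13.9, 16.8 and 18.7 CPM in FXR-/- libraries, against 15.1, 19.5, 16.5, 18.4 and 18.8 CPM in WT libraries, and the groups overlapped. Abcc8 did not pass the test, and its log2 fold change was 0.10 (SE 0.130, edgeR adjusted p = 0.661).

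The remaining A and C genes gave no call. In the cluster of Abca8b, Abca8a, Abca9, Abca6 and Abca5 on chromosome 11, Abca6 had 13.7, 16.7, 18.0, 20.9 and 21.4 CPM in FXR-/- libraries, against 22.1, 14.8, 15.1, 14.6 and 14.9 CPM in WT libraries. WT library 3 stood above all others and the other WT libraries lay close together. Abca6 did not pass the test, and its log2 fold change was 0.16 (SE 0.143, edgeR adjusted p = 0.503). Abca9 had 10.3, 12.1, 15.4, 11.5 and 12.2 CPM in FXR-/- libraries, against 12.9, 12.3, 13.7, 10.9 and 10.1 CPM in WT libraries, with full overlap. Abca9 did not pass the test, and its log2 fold change was 0.04 (SE 0.114, edgeR adjusted p = 0.850). Abca8a had 4.98, 10.4, 9.54, 7.50 and 6.47 CPM in FXR-/- libraries, against 5.96, 6.79, 5.01, 3.71 and 4.43 CPM in WT libraries, with libraries 9 and 10 the highest, as they were in adipocyte markers. Abca8a did not pass the test, and its log2 fold change was 0.58 (SE 0.209, edgeR adjusted p = 0.0828). DESeq2 called Abca8a higher, as did edgeR without FXR-/- library 8 (adjusted p = 0.0308). Leaving out FXR-/- libraries 9 and 10 raised the edgeR adjusted p of Abca8a to 0.387, as leaving out its highest values must. Among FXR-/- libraries these were also the highest in endothelial (218 and 203 CPM) and macrophage (83.1 and 99.4 CPM) markers. The part of adipocytes and of these cells in the Abca8a values was not tested.

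Abca4, which clears retinoid adducts from photoreceptors, had 2.12, 3.70, 2.71, 4.09 and 4.11 CPM in FXR-/- libraries, against 2.92, 3.31, 3.20, 3.92 and 3.74 CPM in WT libraries. The groups overlapped (log2 fold change -0.03). Abca13, a very long subfamily A gene, had 0.913, 1.74, 0.785, 1.09 and 1.34 CPM in FXR-/- libraries, against 0.632, 0.777, 0.815, 1.56 and 1.17 CPM in WT libraries, and again the groups overlapped (log2 fold change 0.24). Abcc6, whose loss causes ectopic mineralisation, had 1.86, 1.44, 1.44, 1.51 and 1.70 CPM in FXR-/- libraries, against 1.41, 1.41, 1.54, 1.08 and 1.17 CPM in WT libraries. Abcc6 did not pass the test, and its log2 fold change was 0.26 (SE 0.138, edgeR adjusted p = 0.225). Abcc12 stayed between 0.128 and 0.354 CPM in FXR-/- libraries and between 0.157 and 0.422 CPM in WT libraries (log2 fold change -0.10).

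The mitochondrial ABC genes moved in both directions, 1 lower and 1 higher among 4. Abcb10, an inner membrane transporter needed for haem synthesis in red cell precursors, had 55.5, 53.8, 58.2, 53.9 and 53.9 CPM in FXR-/- libraries, against 81.2, 79.0, 69.4, 61.7 and 73.0 CPM in WT libraries. The FXR-/- libraries lay in a narrow band below every WT library. Abcb10 was 1.32-fold lower in FXR-/- testes, and its log2 fold change was -0.40 (SE 0.0675, edgeR adjusted p = 0.00343). It had the lowest adjusted p of the 7 called members and stayed past the threshold without any 1 of the 10 libraries (log2 fold change -0.46 to -0.36). An antisense gene shares 8.27% of the 50-base words of Abcb10.

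Abcb6, a porphyrin transporter found in the outer mitochondrial membrane and in other compartments, had 7.78, 7.20, 7.49, 7.26 and 6.65 CPM in FXR-/- libraries, against 5.90, 5.78, 5.86, 6.61 and 6.09 CPM in WT libraries. The lowest FXR-/- library, number 12, stood just above the highest WT library, number 6. Abcb6 was 1.20-fold higher in FXR-/- testes, and its log2 fold change was 0.27 (SE 0.0766, edgeR adjusted p = 0.0388). The call was kept without FXR-/- library 12 and without WT library 6 and lost without any 1 of the other 8 libraries (edgeR adjusted p up to 0.0917). The transcripts of Abcb6 share 50.0% of their 50-base words with Gm29253, a gene of the processed transcript type on the same strand, and how such reads were counted is not given in the sources used here. Abcb8 had 54.1, 56.8, 54.7, 50.6 and 52.2 CPM in FXR-/- libraries, against 58.3, 56.9, 50.5, 56.1 and 59.9 CPM in WT libraries, with overlap. Abcb8 did not pass the test, and its log2 fold change was -0.07 (SE 0.0516, edgeR adjusted p = 0.397).

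Of the 3 peroxisomal ABC genes, 1 was lower. Abcd3 encodes PMP70, which brings branched-chain fatty acids and the side-chain precursors of bile acids into peroxisomes. It had 123, 155, 170.2, 137 and 146 CPM in FXR-/- libraries, against 179.9, 191, 189, 169 and 192 CPM in WT libraries. FXR-/- library 10 reached the level of WT library 6, and the other FXR-/- libraries lay below all WT libraries. Abcd3 was 1.26-fold lower in FXR-/- testes, and its log2 fold change was -0.33 (SE 0.0762, edgeR adjusted p = 0.0149). It stayed past the threshold without any 1 of the 10 libraries (log2 fold change -0.40 to -0.28). Abcd3 was lowest in library 8, which also had the lowest sums of Sertoli cell, Leydig cell and macrophage markers. Library 10, the highest FXR-/- library in Abcd3, was also the highest FXR-/- library in each of these sums. In FXR-/- testes 6 of 9 Sertoli cell markers, 1 of 6 Leydig cell markers and 0 of 5 macrophage markers were lower, with none at 0. The part of these cells in the Abcd3 result was not tested.

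Abcd2, which carries very long-chain fatty acids and is known from fat and brain, had 13.8, 32.5, 24.4, 15.4 and 15.1 CPM in FXR-/- libraries, against 17.8, 26.0, 15.8, 15.3 and 19.6 CPM in WT libraries. Libraries 9 and 10 were the highest FXR-/- libraries, in the order of their adipocyte sums, and WT library 4, the highest WT library, also had the highest WT adipocyte sum. Other libraries went against this order. WT library 9, the next WT library in Abcd2, had an adipocyte sum of 21.7 CPM. WT library 4, with a sum of 126 CPM, stood above FXR-/- library 10, with a sum of 522 CPM. Abcd2 did not pass the test, and its log2 fold change was 0.10 (SE 0.235, edgeR adjusted p = 0.815). Without FXR-/- libraries 9 and 10 the log2 fold change of Abcd2 was -0.36 (edgeR adjusted p = 0.172). A fall was bound to follow, because these were the highest FXR-/- libraries in Abcd2. The part of adipocytes in these values was not tested.

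The 2 lysosomal genes gave no call. Abcb9, a peptide transporter, had 5.30, 6.71, 5.80, 7.11 and 7.32 CPM in FXR-/- libraries, against 4.46, 4.83, 5.89, 6.43 and 5.54 CPM in WT libraries, with overlap. Abcb9 did not pass the test, and its log2 fold change was 0.25 (SE 0.125, edgeR adjusted p = 0.205). Abcd4, needed for the release of vitamin B12 from lysosomes, had 13.6, 15.7, 13.6, 13.8 and 12.8 CPM in FXR-/- libraries, against 16.3, 14.5, 13.4, 14.0 and 11.5 CPM in WT libraries. Its log2 fold change was within 0.01 of 0, with a 95% interval of -0.18 to 0.18.

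Abcb5, best known from stem cells of cornea and skin, belonged to none of the role groups. It had 13.4, 9.43, 11.1, 7.76 and 6.58 CPM in FXR-/- libraries, against 23.4, 16.0, 14.2, 13.9 and 13.3 CPM in WT libraries. FXR-/- library 8 reached the level of the lowest WT library, number 9, and WT library 3 stood above all others. Abcb5 was 1.68-fold lower in FXR-/- testes, and its log2 fold change was -0.74 (SE 0.202, edgeR adjusted p = 0.0311). The call was lost without any 1 of 5 libraries, FXR-/- 9, 11 or 12 or WT 3 or 4 (edgeR adjusted p up to 0.0784), and without WT library 3 the log2 fold change was -0.57. In each genotype Abcb5 was highest in the library with the lowest sum of meiotic prophase markers, FXR-/- library 8 (789.6 CPM) and WT library 3 (508 CPM). The meiotic sums of the genotypes overlapped, and their part in the Abcb5 result was not tested.

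**Figure D4:**
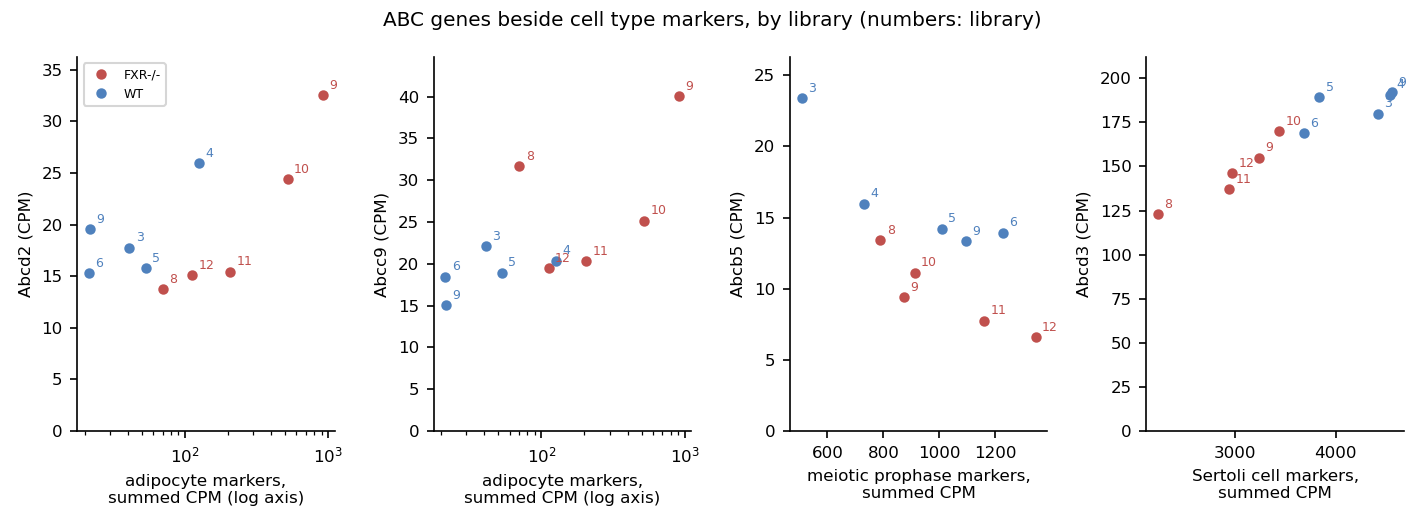
Abcd2 and Abcc9 against summed adipocyte markers (log axis), Abcb5 against summed meiotic prophase markers and Abcd3 against summed Sertoli cell markers, all in CPM, with 1 numbered point per library. FXR-/- libraries 9 and 10 stand highest in adipocyte markers (918 and 522 CPM), WT library 3 lowest in meiotic markers and FXR-/- library 8 lowest in Sertoli cell markers (2245 CPM).

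The cytosolic ATPases of subfamilies E and F carry no membrane part and are linked to ribosomes and translation. They were the most abundant role group per kilobase, and none of the 4 passed. Abce1, which splits ribosomes after termination, had 207, 205, 212, 223 and 235 CPM in FXR-/- libraries, against 165, 192, 215, 215 and 204 CPM in WT libraries. WT library 3 was the lowest and the rest overlapped. Abce1 did not pass the test, and its log2 fold change was 0.13 (SE 0.0702, edgeR adjusted p = 0.253). Abcf2 had 181, 174, 165, 173 and 180.1 CPM in FXR-/- libraries, against 141, 158, 172, 179.7 and 178 CPM in WT libraries, and WT library 3 was again the lowest. Abcf2 did not pass the test, and its log2 fold change was 0.07 (SE 0.0634, edgeR adjusted p = 0.468). For Abcf1 and Abcf3 the 95% intervals of the log2 fold change were narrow, -0.09 to 0.06 and -0.10 to 0.04.

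Among genes that work with ABC exporters, 4 of 14 tested LXR targets and lipid acceptors passed, 1 higher and 3 lower. Of all tested genes 13.9% passed, 6.17% higher and 7.71% lower. The median log2 fold change of the list was -0.02, and a difference between the list and all genes was not tested. Srebf1, the lipid synthesis regulator driven by LXR, was lower (log2 fold change -0.18, edgeR adjusted p = 0.0489), but the call was kept in only 2 of 10 fits that left out 1 library. Its targets Scd2 (log2 fold change -0.41, edgeR adjusted p = 0.0116) and Fasn (log2 fold change -0.27, edgeR adjusted p = 0.00601) were lower and kept their calls in all 10. Scd2 averaged 826 ± 123 CPM in FXR-/- testes and 1100.5 ± 83.2 CPM in WT testes (SD, n = 5 each). Apoc1, a small apolipoprotein, was higher (log2 fold change 1.27, edgeR adjusted p = 0.0392), with its top value in library 9, the library richest in adipocyte markers, and it kept the call in 3 of 10 such fits. The receptors themselves, Nr1h2 and Nr1h3, and the acceptor Apoe did not pass. Among partners and kin of ABC proteins, 1 of 14 tested genes passed, beside the same 13.9% of all tested genes. Tapbp, which bridges the peptide transporter TAP and class I molecules, was lower (log2 fold change -0.38, edgeR adjusted p = 0.00261), while Tap1, Tap2 and the peroxisomal receptor Pex19 of Abcd3 did not pass.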

How the data were processed

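RNA of 10 day 10 testes was measured, 5 FXR-/- and 5 WT, grouped by the genotype in the labels. The authors deposited raw read counts by gene. Among their tools, per the submitters' processing notes, were TopHat2 2.0.10 and Bowtie2 2.1.0, with Bowtie, CASAVA and FastQC 0.10.1, on build mm10. The counter, annotation release and strand setting were not given in the sources used here. Normalized values in the deposit had lost their decimal marks and were left out. All count columns matched a labelled sample.

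Counts of 33037427 to 39655170 per FXR-/- library and 32330029 to 35006180 per WT library were filtered with filterByExpr, scaled by TMM factors and tested with edgeR 4.0.16 in R 4.3.3. The test was the quasi-likelihood F-test, two-sided, with genotype as its only term and Benjamini-Hochberg adjustment over 18559 genes, with a threshold of 0.05. CPM used the same factors. SEs were derived from the F statistic. Intervals and p-values cover only the spread between these libraries, 1 per mouse, with counting noise included. The 95% intervals used a normal approximation from the SE and are narrower than the F-test implies. That of Abca1, -0.34 to -0.0015, leaves out 0 although its unadjusted p in the F-test was 0.0713. Deep counts make abundant members more precise than those with few counts. The fit was tested on simulated data. Alternatives were DESeq2 1.42.0, its size factors, upper-quartile factors, library totals, no filter, FXR-/- libraries 9 and 10 left out, and each library left out in turn.

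Genes were matched by Ensembl ID to the GENCODE M21 annotation (GRCm38, which mm10 names too) for positions, exon lengths and 50-base words shared with other genes. Promoter windows came from RefSeq, which held 45 windows for 38 of 49 members. The members, 13 role groups, 2 pathway lists and 10 marker lists were chosen with earlier results of these data known. Members past the test, the 2 most abundant of each role group, Abcb11 and Abca14 to Abca17 were to be given per library, as were every called pathway gene's fold change. Other members were added after their values were seen. Of the 15 genes in each pathway list 14 were tested. One entry of the second was listed under its older name, Gcn1l1, and Adgre1 was not found by symbol. Abcb5 belongs to no role group. A further matching gene, and the values of 2 members that are counted here, are not reported here.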

Additional observations from a re-analysis of the deposited data

Results flagged for a closer look

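Each member's 5 values per genotype were searched for 1 library far from the other 4, by Dixon's ratio of gap to range above 0.71. Of 90 such groups 7 held such a library, and chance gives about 5 percent of groups, or 1 in 20. In FXR-/- testes, Abca17 had 3.04 CPM in library 8, where the other 4 FXR-/- libraries had 0.228 to 0.437 CPM. Abcg3, the rodent relative of Abcg2, had 0.987 CPM in FXR-/- library 10 and 0.729 to 0.796 CPM in the other FXR-/- libraries. In WT testes, Abca12 had 4.28 CPM in library 9 and 2.76 to 3.11 CPM in the others. The 4 remaining values were all in WT library 3. It had 22.1 CPM of Abca6, where the other WT libraries had 14.6 to 15.1 CPM. It had 23.4 CPM of Abcb5, beside 13.3 to 16.0 CPM, and 8.40 CPM of Abcg4, beside 6.61 to 7.05 CPM. Its 86.6 CPM of Abcf3 lay below the 90.8 to 92.5 CPM of the others. WT library 3 also had the lowest sum of meiotic prophase markers of all 10 libraries, 508 CPM, and its part in these values was not tested.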

How the results depend on the processing

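No paired analysis was possible because the FXR-/- and WT libraries share only the number 9. With 1 library left out in turn, 4 to 7 ABC genes passed in place of 7, with 4 without FXR-/- library 11 or WT library 3 or 4, and 0 to 2 of them were higher. Over all tested genes 1427 to 2867 passed in these fits, in place of 2576 of 18559. The counts were 1427 of 18683 without FXR-/- library 11, 2243 of 18826 without WT library 3 and 1601 of 18719 without WT library 4. Abca17, Abca12, Abcb10 and Abcd3 kept their calls in all 10 such fits, and Abcb5 in 5, Abca16 in 4 and Abcb6 in 2. All 7 were kept with DESeq2's size factors, upper-quartile factors and library totals. Among all genes that passed, the share that was higher was 44.5% with TMM, 53.0% with upper-quartile factors and 61.5% with library totals. DESeq2 called 10 members, adding Abca8a, Abcc1 and Abcc9, and 4 of the 10 were higher, beside 3502 of 30719 genes called in all. Without the filter 1 member was higher and Abcb6 was lost, and without FXR-/- libraries 9 and 10 again 1 was higher, Abcb5 and Abcb6 were lost and Abcc1 was added. All genes called numbered 2293 of 30719 without the filter and 2466 of 18877 without these libraries. Of the pathway genes 5 passed, 9 with DESeq2 and 3 to 6 with 1 library left out, with 3 without WT library 3, 4 or 6. Signs turned only in 15 members, none of which passed, each written here as a log2 fold change. With library totals Abca4 had 0.0074, Abcb1b 0.019, Abcc5 0.020, Abcd4 0.034, Abcf1 0.019 and Abcf3 0.0097. With upper-quartile factors Abcb1b had 0.00022 and Abcd4 0.014, and without the filter Abcd4 had 0.0017. Without FXR-/- libraries 9 and 10 Abca4 had 0.011, Abca9 -0.082, Abcb1a -0.0099, Abcd2 -0.36 and Abcg3 -0.038. With 1 library left out the range was -0.11 to 0.094 for Abca4, -0.18 to 0.021 for Abca8b, -0.057 to 0.096 for Abca9, -0.23 to 0.10 for Abcb1b, -0.0059 to 0.30 for Abcb4 and -0.25 to 0.095 for Abcc12. It was -0.0088 to 0.090 for Abcc4, -0.043 to 0.015 for Abcc5, -0.14 to 0.24 for Abcd2, -0.065 to 0.059 for Abcd4, -0.040 to 0.0022 for Abcf1, -0.094 to 0.092 for Abcg1 and -0.022 to 0.14 for Abcg3. The causes were not tested. The 9 members under 1 CPM are limited by depth.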

Other observations

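Of the 45 tested members, 12 had their lowest and 8 their highest value of all 10 libraries in WT library 3, 9 had their lowest and 7 their highest in FXR-/- library 8, and 8 had their lowest and 8 their highest in WT library 9. Cftr, the chloride channel of the ABC family outside the symbols used here, averaged 10.0 ± 1.74 CPM in FXR-/- testes and 7.52 ± 1.10 CPM in WT testes (SD, n = 5 each) and did not pass (log2 fold change 0.41, edgeR adjusted p = 0.0586). Within 200 kb of the start of Abca17, Atp6v0c, a subunit of the vacuolar proton pump, was lower (log2 fold change -0.29, edgeR adjusted p = 0.00328), and the antisense gene BC028777 was higher at about 1 CPM or less (log2 fold change 0.76, edgeR adjusted p = 0.00732). Scd1, the fat-rich relative of Scd2, ranged over 42.2 to 574.8 CPM in FXR-/- libraries, against 18.4 to 80.3 CPM in WT libraries, with its top value in library 9, the library richest in adipocyte markers, and did not pass (edgeR adjusted p = 0.0690).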
